A study of Schizosaccharomyces pombe with 2 samples.

Results

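The autophagy conjugation genes of fission yeast, Schizosaccharomyces pombe, are described here by how completely their introns were spliced when the splicing factor Prp2 was inactivated in meiosis. The members are atg8 (SPBP8B7.24c), atg12 (SPAC1783.06c), atg7 (SPBC6B1.05c), atg3 (SPBC3B9.06c) and atg5 (SPBC4B4.10c), taken by these identifiers from a table of read counts for 5374 introns of 2548 genes. The table holds 15 introns of these 5 genes, 2 each in atg8, atg12 and atg3, 3 in atg5 and 6 in atg7. The genes were chosen with their unspliced shares and read numbers in these libraries already known, so the values are a description and no test was made on them.

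Both groups came from 1 culture of a pat1_as2 prp2-1 strain. Pat1 is the kinase that keeps fission yeast out of meiosis, and prp2-1 is temperature-sensitive and makes the large U2AF subunit, a protein that binds the 3' end of introns early in splicing, fail in warm cultures. Cells in minimal medium were arrested in G1 by removing nitrogen, meiosis was induced with a chemical, and the culture was split as meiosis I began. The permissive group stayed at 25 °C and the restrictive group went to 34 °C, each for 1 h, and polyA RNA gave 1 library per group. Both libraries carry prp2-1, so warmth alone and the loss of Prp2 cannot be told apart. The libraries held 636989 intron reads at 25 °C and 493659 at 34 °C, of which 6.56% and 39.9% were unspliced. Of 15 genes listed as meiotic markers, 13 were in the table. Every intron of spo4, spo6 and spn7 had more reads at 25 °C than 97.1% of all introns, whereas those of rec8, rec12 and mek1 had at most 9 reads. At 25 °C the introns of mes1, mfr1 and meu14 had 1003, 914 and 1463 reads, and those of spn5 681 and 1991. The intron of spn6 had 97 reads and that of rem1 35, while those of crs1 had at most 8.

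Autophagy delivers cytoplasm to the vacuole inside a double membrane, and in fission yeast it is induced by nitrogen starvation. Its conjugation system works like that of ubiquitin. Atg8 is a ubiquitin-like protein that is joined to the lipid phosphatidylethanolamine of the growing membrane, and Atg12 is another ubiquitin-like protein, joined to Atg5. Atg7 is the activating (E1-like) enzyme of both modifiers, and Atg3 is the conjugating (E2-like) enzyme that passes Atg8 to the lipid. The conjugate of Atg12 and Atg5 promotes that last step.

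The introns with enough reads to be read singly are shown first, since their splice sites differ between the genes. They were those with at least 20 reads in each library, 7 of the 15, and they lie in atg8, atg12 and atg5. All 5 genes lie on the minus strand, and the numbers of introns, taken from the table, run leftmost first along the chromosome, so the highest is the first intron of the transcript. The table does not state this direction, which was inferred from the data, and the match of sequence to counts within a gene rests on it. Sequences are from the RefSeq ASM294v3 assembly, minus strand, 5' to 3'. Capitals mark the first 6 bases (the 5' splice site), the last 3 bases (the 3' splice site) and, where present, the match to a branch site nearest to the intron's end. The strings searched were CTAAC with its close relative CTAAT, besides the variants CTGAC or, last, CTGAT, on the transcribed strand in the last 60 bases.
atg8 intron 2, chrII:3685151-3685231: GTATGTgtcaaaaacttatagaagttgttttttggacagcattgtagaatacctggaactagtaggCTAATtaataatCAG
atg8 intron 1, chrII:3684929-3685094: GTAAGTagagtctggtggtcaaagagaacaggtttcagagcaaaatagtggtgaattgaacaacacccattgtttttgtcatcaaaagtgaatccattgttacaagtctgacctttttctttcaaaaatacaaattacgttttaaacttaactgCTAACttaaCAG
atg12 intron 2, chrI:2199762-2199825: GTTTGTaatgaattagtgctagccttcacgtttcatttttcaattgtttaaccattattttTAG
atg12 intron 1, chrI:2199571-2199624: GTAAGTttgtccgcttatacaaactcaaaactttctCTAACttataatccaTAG
atg5 intron 3, chrII:3433006-3433091: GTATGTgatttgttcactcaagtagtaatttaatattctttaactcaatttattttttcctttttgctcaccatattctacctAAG
atg5 intron 2, chrII:3432841-3432886: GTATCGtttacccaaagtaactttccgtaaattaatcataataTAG
atg5 intron 1, chrII:3432595-3432665: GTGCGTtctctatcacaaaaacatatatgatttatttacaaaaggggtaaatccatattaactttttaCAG

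Both atg8 introns and intron 1 of atg12 begin with GTAAGT or GTATGT, which open 27.5% and 19.99% of the 5038 placed introns that run from GT to AG. The 5' splice site of atg12 intron 2, GTTTGT, was found in 1.61% of these introns. In atg5, GTGCGT of intron 1 was found in 0.258% and GTATCG of intron 2 in 0.0397%, which is 2 introns. A branch site match was present in both atg8 introns and in atg12 intron 1, and in 75.5% of all 5038 introns. The 3 introns of atg5 and intron 2 of atg12 hold none of the 4 strings in that window, which says only that these letters are not there.

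**Figure D1:**
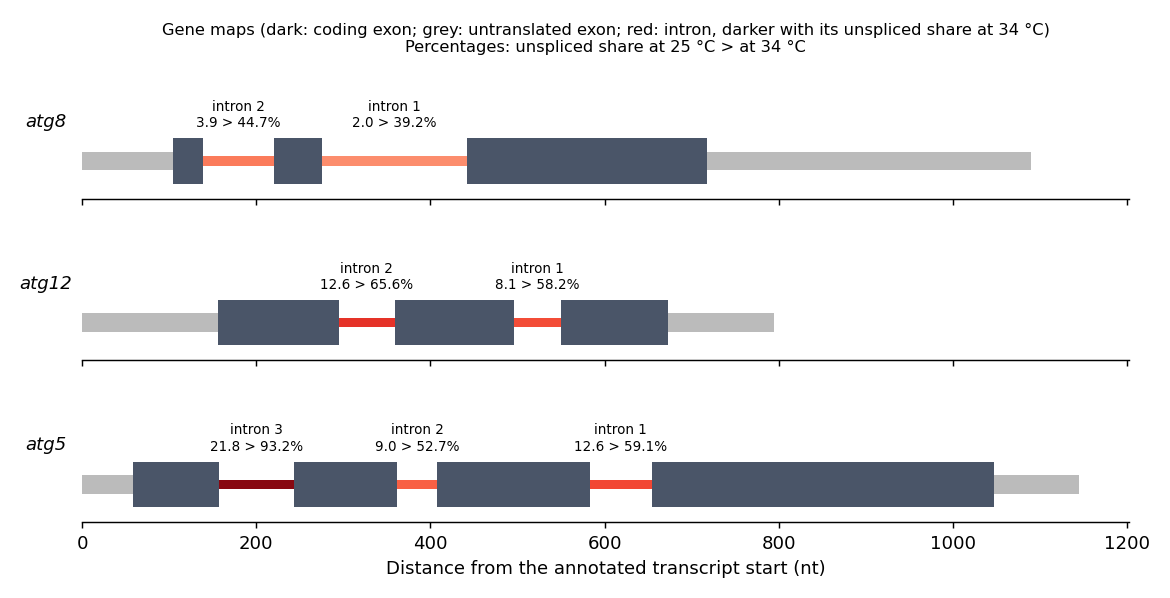
Exons and introns of atg8, atg12 and atg5 against the distance in nucleotides from the annotated transcript start. Each intron carries its unspliced share at 25 °C and at 34 °C, and the first intron of atg5 (intron 3) reaches the highest share, 93.2%.

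At 34 °C every one of these 7 introns had a larger unspliced share than at 25 °C. The share is unspliced reads as a percentage of spliced and unspliced reads, and its intervals cover counting error only. The difference was at least 20 percentage points in 7 of 7 introns, as in 67.7% of the 2508 introns measured in the whole table, and its Newcombe 95% interval lay above 0 in 7 of 7, against 84.4%. A share lower by at least 20 points was found in 0 of 7, against 0.0399%, and an interval below 0 in 0 of 7, also against 0.0399%. The median difference was 46.5 points, beside 32.3 points over all measured introns. More than 50% of reads were unspliced at 34 °C in 5 of the 7, against 39.5% of all. Nothing is read from these counts, since the genes were chosen with the values known.

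Among the 7 measured introns, those of the modifier gene atg8 had the lowest unspliced shares at both temperatures. Intron 1, the second in the transcript, had 2221 spliced and 46 unspliced reads at 25 °C, a share of 2.03% (exact 95% binomial interval 1.49 to 2.70). At 34 °C it had 386 spliced and 249 unspliced reads, a share of 39.2% (35.4 to 43.1). The intervals are far apart, and the difference was 37.2 points (Newcombe 95% interval 33.4 to 41.1). Intron 2, the first in the transcript, went from 84 unspliced of 2127 reads (3.95%) to 322 of 720 (44.7%), a difference of 40.8 points (37.1 to 44.5). The introns of atg8 thus stood close together, with 1.92 points between them at 25 °C (0.918 to 2.96) and 5.51 points at 34 °C (0.242 to 10.7). Of the 627 genes with at least 2 measured introns, 11.3% had a smaller gap between their introns at 34 °C, where the median gap was 29.0 points. The gap is the difference between the highest and the lowest share of a gene's measured introns. It can be larger with more introns or fewer reads, and the genes were not matched for either.

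The other modifier gene, atg12, had more unspliced reads than spliced ones at 34 °C in both introns. Intron 1 had 194 spliced and 17 unspliced reads at 25 °C and 110 spliced and 153 unspliced reads at 34 °C. Its share was 8.06% (4.76 to 12.6) and then 58.2% (52.0 to 64.2), 50.1 points higher (42.6 to 56.6). Intron 2, which has the GTTTGT splice site, had 167 spliced and 24 unspliced reads at 25 °C and 212 spliced and 405 unspliced reads at 34 °C. This is a share of 12.6% (8.22 to 18.1) and then 65.6% (61.7 to 69.4), 53.1 points higher (46.4 to 58.5). Between the introns lay 4.51 points at 25 °C (-1.47 to 10.7) and 7.47 points at 34 °C (0.511 to 14.5), so at 25 °C they could not be separated by their counts. Of the 627 genes with at least 2 measured introns, 15.2% had a smaller gap at 34 °C.

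In atg5, whose protein receives Atg12, the first intron of the transcript stood apart from the other two. This intron 3 had 187 spliced and 52 unspliced reads at 25 °C, a share of 21.8% (16.7 to 27.5). At 34 °C only 7 spliced reads stood beside 96 unspliced ones, a share of 93.2% (86.5 to 97.2), 71.4 points higher (62.8 to 77.3). Of all measured introns, 91.4% had a lower share at 25 °C and 98.0% a lower share at 34 °C. Intron 2 went from 32 unspliced of 355 reads (9.01%) to 29 of 55 (52.7%), a difference of 43.7 points (30.3 to 56.6). Intron 1 went from 42 of 333 (12.6%) to 52 of 88 (59.1%), a difference of 46.5 points (35.3 to 56.7). At 34 °C intron 3 exceeded intron 1 by 34.1 points (22.4 to 45.1) and intron 2 by 40.5 points (26.3 to 53.9). Such a gap was not rare. Of the 627 genes with at least 2 measured introns, 70.2% had a smaller gap and 30.6% had a gap over 40 points. By the inferred numbering, the intron with the commonest 5' splice site of the 3, GTATGT, was the least spliced. The introns given the rare GTGCGT and GTATCG were not separated from each other (interval of their difference at 34 °C -22.5 to 9.99 points). The direction of numbering was itself inferred from 5' splice sites and shares. With the other direction, intron 3 would carry GTGCGT and intron 1 GTATGT.

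The enzyme genes atg7 and atg3 were read too rarely for a share per intron at the minimum of 20 reads, and their counts are given as they stand. Intron 1 of atg3 had 29 reads at 25 °C, 2 of them unspliced, and 18 at 34 °C, 13 of them unspliced. In intron 2 of atg3 these counts were 4 of 23 and 4 of 7. Over both introns the share was 11.5% of 52 reads (4.35 to 23.4) and 68.0% of 25 reads (46.5 to 85.1). In atg7 the deepest intron was number 1, the last of the transcript, with 3 unspliced of 28 reads at 25 °C and 7 of 13 at 34 °C. Intron 4 had 2 of 17 and 5 of 8 reads. Introns 2, 3, 5 and 6 had 0 unspliced reads at 25 °C among 7, 1, 6 and 7 reads. By a limit of 3 reads, a count of 0 in 7 allows a share of up to 42.9%, and the exact 95% interval reaches 41.0%, so low and moderate shares at 25 °C could not be separated at this depth. At 34 °C they had 6 of 7, 1 of 2, 0 of 3 and 1 of 4 reads unspliced. Of these 4 introns, intron 2 alone had an interval of the difference above 0 (34.5 to 97.4 points). Summed over its 6 introns, atg7 had 5 of 66 reads unspliced at 25 °C (7.58%, 2.51 to 16.8) and 20 of 37 at 34 °C (54.1%, 36.9 to 70.5). In both enzyme genes the sums therefore lay on the same side as in the other 3 genes, with intervals that do not overlap.

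**Figure D2:**
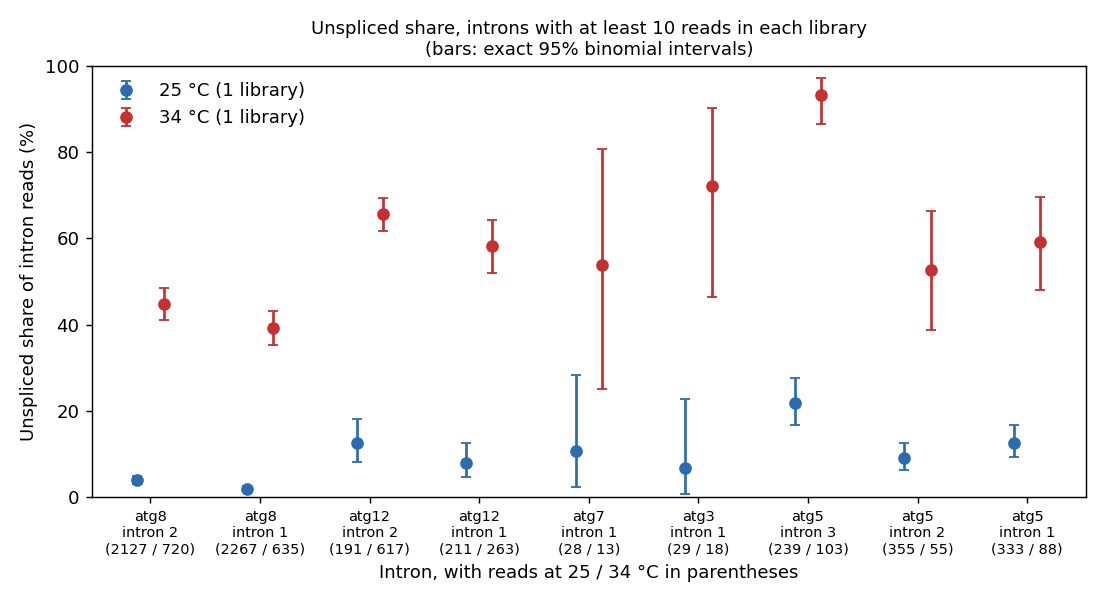
Unspliced share in percent of the 9 introns with at least 10 reads in each library, grouped by gene and in transcript order, with exact 95% binomial intervals and 1 library per temperature. The intervals at 25 °C and 34 °C overlap in intron 1 of atg7 alone, which had 28 and 13 reads.

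Ordered by their share at 34 °C, the 7 introns ran from atg8 intron 1 and atg8 intron 2 through atg5 intron 2, atg12 intron 1, atg5 intron 1 and atg12 intron 2 to atg5 intron 3. Each neighbour overlapped the next in its exact interval except atg12 intron 2 and atg5 intron 3. At 25 °C the order was atg8 intron 1, atg8 intron 2, atg12 intron 1, atg5 intron 2, atg12 intron 2, atg5 intron 1 and atg5 intron 3. Here atg8 intron 1 was below atg8 intron 2, and atg5 intron 3 above atg5 intron 1, without overlap. Thus atg8 held the lowest places and atg5 intron 3 the highest at both temperatures.

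The number of reads separated the genes in another way. Reads are given per 100000 intron reads of the library, spliced and unspliced together. On this scale the median measured intron was 1.38-fold higher at 34 °C (log2 0.47), and a member's ratio is to be read beside that. Fewer cells with a transcript and less of it per cell cannot be told apart in these bulk samples. At least 2-fold lower at 34 °C were 4 of the 7 introns, against 9.97% of all measured introns, and at least 2-fold higher was 1 of 7, against 27.4%. Spliced reads alone were at least 2-fold lower in 5 of 7, against 30.9%. Introns of 1 gene share its transcripts, so these are not separate cases, and the 4 introns with lower read number lie in atg8 and atg5 only.

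Reads of atg8 were fewer at 34 °C. Intron 1 had 356 reads per 100000 at 25 °C and 129 at 34 °C, 2.77-fold lower (exact 95% interval for counting error 2.53 to 3.03). Intron 2 had 334 and 146, 2.29-fold lower (2.10 to 2.49). Spliced reads alone were 4.46-fold lower at intron 1 (4.001 to 4.98) and 3.98-fold lower at intron 2 (3.57 to 4.44), while unspliced reads were 6.98-fold and 4.95-fold higher. For comparison, the median measured intron had 1.29-fold fewer spliced and 7.15-fold more unspliced reads per 100000. At atg8 the unspliced reads were thus near the middle of all introns in intron 1, where 48.8% of the 2250 introns with unspliced reads in both libraries had a smaller ratio, and 34.7% in intron 2.

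Reads of atg5 were fewer as well, with little gain of unspliced reads. Intron 1 had 52.3 reads per 100000 at 25 °C and 17.8 at 34 °C, 2.93-fold lower (2.31 to 3.75). Intron 2 had 55.7 and 11.1, 5.002-fold lower (3.76 to 6.77), and intron 3 had 37.5 and 20.9, 1.80-fold lower (1.42 to 2.29). Spliced reads were 6.26-fold, 9.63-fold and 20.7-fold lower at introns 1, 2 and 3. Unspliced reads were 1.60-fold higher at intron 1 (1.04 to 2.46), 1.17-fold at intron 2 (0.683 to 1.996) and 2.38-fold at intron 3 (1.68 to 3.41). These gains are small among all introns, of which 6.40%, 3.87% and 13.02% had a smaller ratio of unspliced reads. The higher unspliced share of atg5 at 34 °C thus came with far fewer spliced reads and few added unspliced ones.

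The gene atg12 went the other way. Its intron 2 had 29.98 reads per 100000 at 25 °C and 125 at 34 °C, 4.17-fold higher (3.54 to 4.93), a ratio above that of 97.01% of measured introns. Unspliced reads of this intron were 21.8-fold higher (14.4 to 34.4), and spliced reads were 1.64-fold higher (1.33 to 2.02). Intron 1 had 33.1 reads per 100000 and then 53.3, 1.61-fold higher (1.34 to 1.94). Its unspliced reads were 11.6-fold higher (7.02 to 20.5), but its spliced reads went from 30.5 to 22.3 per 100000, 1.37-fold lower (1.08 to 1.74). The read number of intron 1 is therefore higher or lower at 34 °C depending on whether unspliced reads are counted, and relative to the median intron it was 0.22 higher on the log2 scale. The introns of atg12 had nearly equal read numbers at 25 °C, and at 34 °C intron 2 had the larger number of both spliced and unspliced reads.

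**Figure D3:**
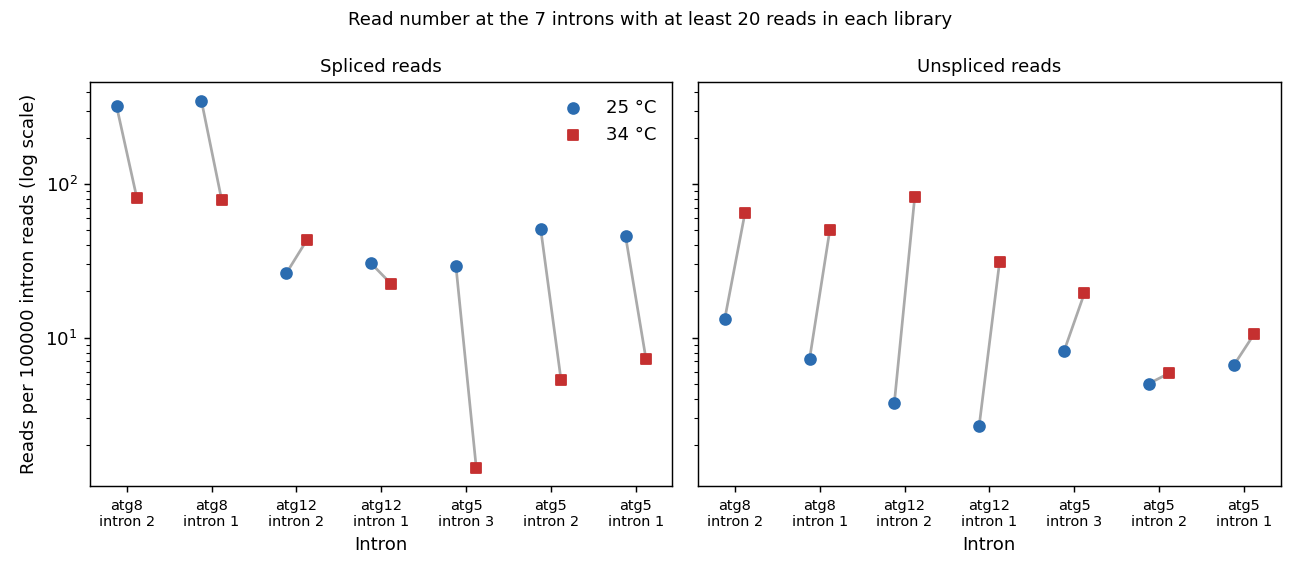
Spliced reads (left) and unspliced reads (right) per 100000 intron reads of the library, on a log scale, for the 7 introns in transcript order at 25 °C and 34 °C, 1 library each. Spliced reads are lower at 34 °C in all of them except atg12 intron 2, and unspliced reads on this scale are higher in all 7. At atg5 intron 2 the interval of the unspliced ratio includes 1 (0.683 to 1.996), and the unscaled counts were 32 at 25 °C and 29 at 34 °C.

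At atg3 and atg7 the ratio of reads had an interval that includes 1 at every intron except intron 2 of atg3, 2.55-fold lower at 34 °C (1.06 to 7.03). Summed over introns, atg3 had 52 reads at 25 °C and 25 at 34 °C, and atg7 had 66 and 37. Scaled by library these are 1.61-fold and 1.38-fold lower. A read across more than 1 intron could enter such a sum more than once.

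**Figure D4:**
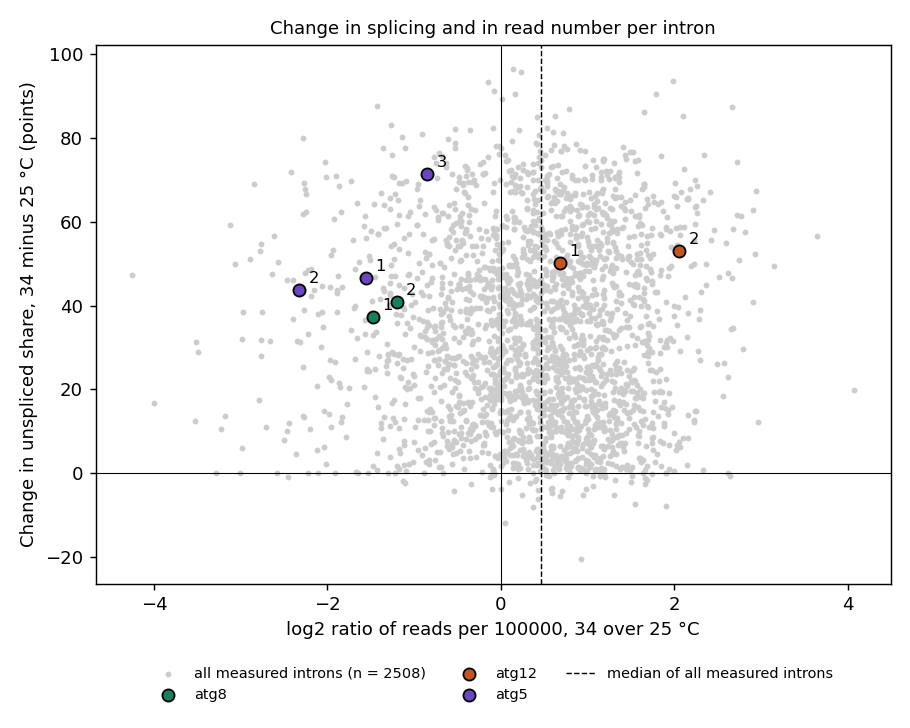
Difference in unspliced share (34 minus 25 °C, percentage points) against the log2 ratio of reads per 100000 for the 2508 measured introns, with the introns of atg8, atg12 and atg5 marked by their numbers and the median ratio, 0.47, as a dashed line. The atg8 and atg5 introns lie left of 0 and the atg12 introns right of it, all at differences between 37.2 and 71.4 points.

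Annotated transcripts on the opposite strand overlap most of these introns. The lncRNA SPNCRNA.804 overlaps both atg12 introns, SPNCRNA.6234 both atg8 introns and SPNCRNA.6132 introns 2 and 3 of atg5. Exon sequence of mde4, a gene for a monopolin subunit, overlaps introns 1 to 4 of atg7. The extent of these overlaps was not measured. Whether the counting used strand is not given in the sources used here, so reads of such a transcript could have been counted as unspliced, and their part in the values was not tested. Intron 1 of atg5 is free of such overlap, as are both introns of atg3, and at atg5 intron 1 the difference was 46.5 points. With the other direction of numbering, the free place in atg5 would carry the counts of intron 3, with a difference of 71.4 points. Over the whole table, 58.6% of the 2415 placed and measured introns overlap an annotated exon of another gene. That share counts exons on either strand, so it is not a share for the opposite strand alone.

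All 15 introns lie within coding sequence, so the annotated reading frame was followed into each intron as if it alone were retained. In 12 of the 15 the first stop codon fell inside the intron. The share over all placed introns was not computed, so nothing particular to these genes is read from this count. For atg8, whose protein has 121 residues in this annotation, reading stopped after 26 codons with intron 2 retained and after 45 with intron 1. For atg12, with 132 codons, it stopped after 48 with intron 2 and after 109 with intron 1. For atg5, with 261 codons, it stopped after 43, 87 and 140 with introns 3, 2 and 1. The exceptions were intron 1 of atg3 and introns 4 and 5 of atg7. Intron 1 of atg3 is 45 bases long, a multiple of 3, and holds no stop in frame, so its retention gives 290 codons in place of 275. Introns 4 and 5 of atg7 shift the frame and lead to a stop downstream, after 253 and 114 of 649 codons. These are properties of the sequence, and no protein was measured.

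The rest of the autophagy pathway was described from a list of 41 symbols, of which 32 matched a gene and 17 had introns in the table. The genes atg10 and atg16, for the Atg12-conjugating enzyme and the partner of the Atg12 and Atg5 conjugate, have no introns listed. With at least 20 reads in each library, 26 introns of 13 genes remained. In 14 of them the unspliced share was at least 20 points higher at 34 °C, against 67.7% of all measured introns. The interval lay above 0 in 21, against 84.4%, and below 0 in 0, against 0.0399%. The median difference of this list was 26.0 points, beside 32.3 over all introns. With a minimum of 50 reads it was 15.5 points over 14 introns. At atg4, for the protease that trims Atg8 and frees it from the lipid, the share of the single intron went from 11.5% of 104 reads to 46.2% of 39 reads. This is a difference of 34.6 points (18.2 to 50.6).

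The deepest measured intron of each gene is given next, and it does not stand for the other introns of that gene. In atg13 and atg101, for subunits of the Atg1 kinase complex, the deepest introns had 3.33% and 4.94% unspliced at 25 °C and 3.08% and 20.8% at 34 °C. The intron of atg38, for a subunit of the lipid kinase complex, had 5.66% and 12.5%, a difference between -1.60 and 16.9 points by its interval. The WD-repeat genes atg1801, atg1802 and atg1803, whose proteins bind phosphoinositides, had deepest introns at 19.2%, 12.96% and 22.9% at 34 °C, from 2.44%, 2.35% and 11.2%. Other introns of these genes were less spliced. At 34 °C introns 2 and 3 of atg1802 had 81.0% and 96.0% unspliced, and introns 1 and 4 of atg1803 had 44.1% and 58.6%.

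The intron of nbr1, for a selective autophagy receptor, went from 17.9% of 28 reads to 76.2% of 21 reads, and that of epr1, for a receptor of autophagy of the endoplasmic reticulum, from 7.61% of 447 to 54.2% of 371 reads. The deepest introns of hva22, atg24, ctl1 and atg44 had 58.3%, 42.9%, 35.8% and 34.9% at 34 °C, from 18.6%, 7.94%, 3.94% and 12.2%. The other measured intron of hva22 had 15.3% at 34 °C, and that of atg24 had 75.2%. Fewer reads at 34 °C were not limited to atg8 and atg5. Of the 26 introns 8 had at least 2-fold fewer reads per 100000, against 9.97% of all measured introns. Several of the 8 lie in the same gene, as in ctl1 and atg24, so they are not separate cases. Among them were the deepest of ctl1 (6.79-fold), atg1802 (4.59-fold) and atg24, for a sorting nexin (4.15-fold). At least 2-fold more reads were found at 6, against 27.4%.

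Genes of other ubiquitin-like modifiers gave the nearest comparison by kind of pathway, in 22 measured introns of 9 genes from a list of 23 symbols. Of these introns, 9 were at least 20 points higher at 34 °C, against 67.7% of all measured introns. The interval lay above 0 in 14, against 84.4%, and below 0 in 0, against 0.0399%. The median difference was 17.1 points, beside 32.3 over all measured introns, or 26.5 points over 45 introns with no minimum. At pmt3, for SUMO, the share of the deepest intron went from 6.19% to 62.7%, and at urm1 from 11.1% to 73.0%. At hub1 it went from 2.33% to 16.9%, and at ned8 from 0 of 20 reads to 2 of 32. At uba1, for the ubiquitin-activating enzyme, it went from 2.56% to 14.1%, and at hus5, for the SUMO-conjugating enzyme, from 1.49% to 6.73%. At nse2, for a SUMO ligase, and ulp2, for a SUMO protease, it went from 0.860% to 1.93% and from 1 of 29 reads to 5 of 50. The deepest introns of pmt3 and urm1 thus lay in the range of atg12 and atg5 at 34 °C, and those of hub1, ned8, uba1, hus5, nse2 and ulp2 below atg8. In pmt3 the other measured intron had 11.6% unspliced at 34 °C. At least 2-fold fewer reads were found at 0 of the 22 introns, against 9.97% of all measured introns, and at least 2-fold more at 7, against 27.4%. Introns given beside the deepest of a gene in these lists were chosen after their values were seen.

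The introns of other genes most like the deepest member intron, atg8 intron 1, were found by the distance between their pairs of unspliced shares at the 2 temperatures, over 716 introns with at least 100 reads in each library. They were intron 2 of ubc15 (2.64% and 39.5%, distance 0.672 points), intron 2 of mis16 (2.86% and 38.8%, 0.924 points) and intron 2 of SPCC11E10.09c (1.49% and 40.1%, 1.00 points). The likeness rests on 2 libraries.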

How the data were processed

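PolyA RNA of 1 culture was sequenced as 1 library per temperature, assigned from the sample titles. The authors deposited unscaled counts per intron, of spliced and of unspliced reads, per the file headers. A ratio of these counts, formed by the authors after writing 1 for each 0, per the file headers, was not used. TopHat and SAMtools were named, per the submitters' processing notes, without versions. How an unspliced read was defined, the strand use, the counting tool and the genome build were not given in the sources used here.

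Shares have exact Clopper-Pearson and differences Newcombe 95% intervals, for counting error only. PCR copies of a molecule are not independent reads. The Newcombe intervals were tested on simulated data with 200 changed introns. Those counts were drawn from binomial distributions, so the test cannot show the effect of PCR copies or of variation between libraries. Read numbers were scaled by the sum of intron reads, and their ratios have exact conditional binomial intervals. An intron was measured with at least 20 reads in each library (2508 of 5374). Members and lists were chosen with earlier results of these data known. Named were every member intron, the deepest measured intron of each gene in both comparison lists and the 3 nearest introns, except that the values of 1 gene of these lists are not reported here.

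Introns were placed by number in the RefSeq annotation of ASM294v3, where 2541 of 2548 gene identifiers had an entry and 2428 genes had as many introns as exactly 1 set of annotated introns. The direction of numbering had to be inferred. A 5' splice site score summed the log2 frequency, over equal base use, of intron bases 3 to 6. For genes on the minus strand, the within-gene rank correlation of the score of the 5' splice site with the difference in share was -0.218 over 965 introns with numbers from the left, 0.0414 over 966 with numbers along the transcript, and -0.162 over 920 in plus-strand genes. If the numbers ran along the transcript, the sequences, lengths and places of the introns of a member would be exchanged within the gene, and the counts would stand. Python 3.11.15, NumPy 2.4.6, pandas 2.3.3, SciPy 1.17.1 and matplotlib 3.10.9 were used.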

Additional observations from a re-analysis of the deposited data

How the results depend on the processing

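The median difference in unspliced share of the member introns was 46.5 points with a minimum of 10 or 50 reads, with no minimum and with each 0 replaced by 1, and on the log2 odds ratio scale it was 3.95. With no minimum, 14 of 15 introns were at least 20 points higher and 12 of 15 had an interval above 0. No share of all introns is given at this or the other changed settings, so nothing is read from such counts. Without introns that an exon of another gene overlaps, 1 of 1 was at least 20 points higher. The median log2 ratio of reads, -1.20 as reported, was -1.56 with no scaling, -1.66 by the median of ratios and -2.16 for spliced reads only, where 0 introns were at least 2-fold higher. For atg12 intron 1 the log2 ratio was 0.69 as reported and -0.45 for spliced reads only, since the unspliced reads are then left out. The other counts of member introns stayed within 1.5 times. The medians of the comparison lists moved with the minimum, from 15.5 to 26.0 points for other autophagy genes and from 16.8 to 26.5 for other ubiquitin-like conjugation genes. They stayed within the counting intervals of the middle introns, which are wide and do not measure the spread of a median. No paired analysis was possible because each temperature has 1 library, and for the same reason no replicate could be left out. Depth limits atg3 and atg7, whose introns had at most 29 reads at 25 °C and 18 at 34 °C.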
